A study of Canis lupus familiaris with 6 samples.

Results

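The dual-specificity phosphatases, Sproutys and SPREDs that restrain ERK signalling were followed in RasV12 cells cultured alone or among normal neighbours. The group was defined by gene name as DUSP1, DUSP4, DUSP5, DUSP6, DUSP7, SPRY1, SPRY2, SPRY4, SPRED1 and SPRED2, and every probe that the array's annotation gives to one of these symbols was taken, whatever its value. Of the 10 genes, 8 had a probe under their symbol, with 14 probes in all among the 43603 non-control probes of the array, which carry 34378 distinct names. DUSP4 and SPRED2 had none under their symbols. A pair of probes that the array's description assigns to dual specificity phosphatase 4 under the name LOC482880 is reported beside the 14, chosen after the data were seen and counted with them only where stated.

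MDCK (Madin-Darby canine kidney), the parent of all samples, is a line of dog kidney epithelium. The line MDCK-pTR GFP-RasV12 makes the oncogenic Ras mutant RasV12 tagged with GFP when tetracycline is added, and all 6 samples carried this construct and received tetracycline for 24 h. The groups differed in their neighbours: 3 samples came from the line cultured alone, and 3 from mixed culture with normal MDCK cells, which have no RasV12. In both groups the GFP-positive cells were sorted before RNA extraction, and each RNA was hybridised to 1 Agilent canine array in 1 colour. The protocol gives 10 normal cells to 1 RasV12 cell, but 1 mixed sample, replicate 2, is labelled 100 to 1. The RNA extraction field of the labels refers to cells that also carry a mutant β-catenin, which neither the sample titles nor the study's methods give for these cultures. Nothing in the labels says that the replicates were separate cultures, so the p-values measure the spread between these samples, which may be technical. Each group filled a slide of its own, and an effect of the slide cannot be told apart from one of the culture condition.

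Active Ras drives the kinase cascade from RAF through MEK to ERK, and ERK induces many of the genes that shut it down. The DUSP enzymes remove the activating phosphates from MAP kinases, with DUSP6 and DUSP7 acting mainly on ERK in the cytoplasm, DUSP4 and DUSP5 in the nucleus, and DUSP1 in the nucleus on ERK, p38 and JNK. Sprouty proteins act upstream, between receptor tyrosine kinases and RAF, and SPRED proteins bring the Ras GTPase-activating protein neurofibromin to the membrane. Transcripts of these genes are widely used as readouts of ERK output in Ras-transformed cells.

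The probes are 60 bases long and are shown for the pairs of paralogs that the results set side by side, since probes of related genes could share signal. In the first pair, capitals mark the bases at which the DUSP6 probe at chr15:30323839-30323898 (minus strand) and the DUSP7 probe at chr20:37681457-37681516 (plus strand) are the same when aligned without gaps. The second pair is marked in the same way for SPRY1 at chr19:16971120-16971179 (minus strand) and SPRY2 at chr22:33366944-33367003 (minus strand). Coordinates are those of canFam3, the build that the array files name. Which exon or part of the transcript each probe lies in was not assigned, because no annotation of that build was used here.
DUSP6: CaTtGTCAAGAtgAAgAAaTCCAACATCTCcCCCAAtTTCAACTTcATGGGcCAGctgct
DUSP7: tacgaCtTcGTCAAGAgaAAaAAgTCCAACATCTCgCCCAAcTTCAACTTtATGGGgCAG
SPRY1: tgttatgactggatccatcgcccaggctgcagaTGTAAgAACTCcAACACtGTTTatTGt
SPRY2: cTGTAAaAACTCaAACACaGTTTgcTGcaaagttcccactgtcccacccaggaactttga
The DUSP6 and DUSP7 probes shared 45 of 55 aligned bases (81.8%), and the Sprouty probes 21 of 28 (75%). The other DUSP6 and DUSP7 probes lie elsewhere in their transcripts. The DUSP1 probe, at chr4:39590127-39590186 on the plus strand, and a second DUSP7 probe, at chr20:37678485-37678544, are given without capitals because they carry the other results that passed the test among the probes printed here.
DUSP1: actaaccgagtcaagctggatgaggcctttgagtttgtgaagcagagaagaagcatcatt
DUSP7, second probe: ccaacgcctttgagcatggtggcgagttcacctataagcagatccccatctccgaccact

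The clearest change among these genes was a fall of DUSP7 in mixed culture, seen at all 3 of its probes, and a smaller rise of DUSP1. DUSP6 was lower on every mixed array at all 4 of its probes without passing the test, and SPRY2 and SPRED1 lay on the opposite side from SPRY1 and SPRY4. Each value below is the scanner's background-corrected signal in arbitrary intensity units, and each difference is the mean of mixed culture minus that of culture alone after taking log2 and subtracting each array's 75th percentile. A probe was called when limma's moderated test over all 26535 tested probes gave an adjusted p (Benjamini-Hochberg, two-sided) under 0.05. With 3 arrays against 3 the number of arrays limits the precision, and an exact permutation test on 1 probe cannot go below p = 0.1. All 14 probes were tested, and 4 were called (28.6%), against 11.2% of all tested probes. Of these, 3 were called lower, where the share of all tested probes is 5.72%, and 1 higher, where it is 5.5%. The 3 lower calls were all of DUSP7, so the calls came from 2 of the 8 genes. Probes of the same gene are not independent, and the shares here are of probes, not of genes. The alone and mixed arrays did not overlap at 10 of the 14 probes, against 37.2% of all tested probes, with the mixed arrays below at 8 (19.4% of all) and above at 2 (17.8% of all). The 8 were the 4 DUSP6 probes, the 3 DUSP7 probes and the SPRY1 probe. An unadjusted p under 0.05 was reached at 10 of the 14 probes, against 31.4% of all tested probes. The difference was below 0 at 10 of the 14, against 50.6% of all tested probes, and its median was -0.33 against -0.00. By gene, all probes were lower for 5 of the 8 genes and higher for 3. The size of the difference had a median of 0.37 over the 14 probes and 0.17 over all tested probes, where the median SD between replicates was 0.13. In these sorted populations, a smaller share of cells that express a gene and less RNA per cell cannot be told apart.

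**Figure D1:**
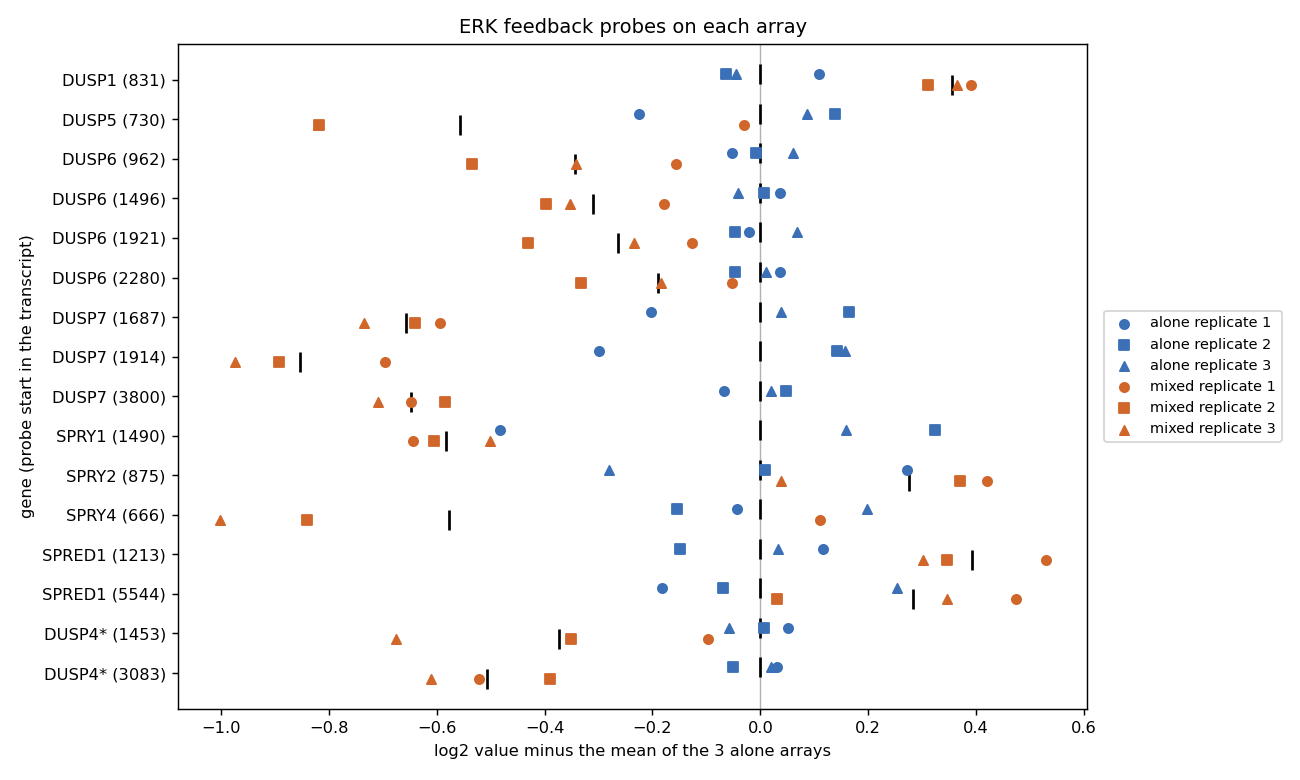
Log2 value of each ERK feedback probe on each array, minus the mean of the 3 alone arrays (horizontal axis). Blue symbols are alone arrays, orange symbols mixed arrays, the symbol shape gives the replicate and the black ticks are group means. Numbers after gene names are the probe's start in its transcript, and DUSP4* marks the LOC482880 probes. The 3 DUSP7 probes, the 4 DUSP6 probes, SPRY1 and both DUSP4* probes have every mixed array below every alone array. DUSP1 and the SPRED1 probe at base 1213 have every mixed array above.

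DUSP7, which encodes a cytoplasmic phosphatase of ERK, fell in mixed culture. Its probe at chr20:37683343-37683402, base 3800 of the transcript, read 4693, 5743 and 5194 in alone replicates 1 to 3 and 3202, 3440 and 2877 in mixed replicates 1 to 3. Every mixed array lay well below every alone array, and the mixed arrays were close together. The difference was -0.65 (SE 0.07, 95% interval -0.82 to -0.47, adjusted p = 0.0131, limma), a 1.57-fold lower signal, and it ranked 138 by p among the 26535 probes. The probe paired above with DUSP6 read 53.3, 81.8 and 76.2 alone and 41.3, 37.1 and 31.9 in mixed culture. Alone replicate 1 was the lowest of the alone arrays here and still above all mixed arrays. The difference was -0.85 (SE 0.15, 95% interval -1.21 to -0.50, adjusted p = 0.0234, limma), or 1.81-fold. Whether this dim probe, with 45 of 55 aligned bases shared, also reads DUSP6 transcripts was not tested. The second probe printed above read 76.9, 112 and 94.7 alone and 59.8, 59.6 and 50.9 in mixed culture, a difference of -0.66 (SE 0.11, 95% interval -0.92 to -0.39, adjusted p = 0.0222, limma). The 3 intervals overlapped. At the pair of dim probes the size depended on how background was handled. With normexp, a model-based correction from the raw signals with an added offset of 50 units, the differences were -0.35 and -0.33 (adjusted p = 0.0321 and 0.0196, limma). The probe at base 3800 stayed at -0.62. An added offset by itself shrinks log2 differences, most at dim probes, and its part was not separated from that of the correction.

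The DUSP7 calls depended on which arrays entered. The adjusted p of the probe at base 3800 was 0.0683 when alone replicate 2 was left out, 0.0747 for alone replicate 3, 0.0727 for mixed replicate 2 and 0.0759 for mixed replicate 3, with differences of -0.68 to -0.62. It was 0.00541 without alone replicate 1 and 0.0243 without the first mixed replicate. The other DUSP7 probes lost and kept their calls under the same arrays, and without alone replicate 2, alone replicate 3, mixed replicate 2 or mixed replicate 3 the whole comparison called only 24, 7, 9 and 12 probes, against 2978 with all arrays. Scaled to the spike-in controls instead of the 75th percentile, the 3 DUSP7 differences were -0.81, -1.02 and -0.82 (adjusted p = 0.0345, 0.0461 and 0.0516, limma).

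DUSP6, which like DUSP7 encodes a cytoplasmic phosphatase of ERK, was measured at 4 probes along 1 transcript on chromosome 15. The probe nearest the start of the transcript, the one printed above, read 2805, 3271 and 3162 alone and 2662, 2109 and 2197 in mixed culture. Mixed replicate 1 was the highest of the mixed arrays and lay just below the alone arrays. The difference was -0.34 (SE 0.11, 95% interval -0.60 to -0.08, adjusted p = 0.0876, limma). The next probe along, starting at base 1496, read 28460, 31477 and 28073 alone and 24999, 22097 and 20792 in mixed culture, a difference of -0.31 (SE 0.08, 95% interval -0.51 to -0.11, adjusted p = 0.0606, limma). The probe at base 1921 read 8718, 9678 and 9656 alone and 8259, 6889 and 7190 in mixed culture, and its difference was -0.26 (SE 0.10, adjusted p = 0.122, limma). After scaling, the mixed arrays stood in the same order at these 2 probes as at the first, with replicate 1 nearest to the alone arrays. The last probe, at base 2280, read 56994, 60782 and 58267 alone and 54614, 46346 and 46729 in mixed culture, for a difference of -0.19 (SE 0.09, 95% interval -0.41 to 0.03, adjusted p = 0.205, limma). The mixed arrays were below the alone arrays at each of the 4 probes (p = 0.1 by the exact permutation test, the smallest it allows). The differences became smaller along the transcript, but their intervals overlap and this order was not tested. The probe at base 1496 passed the threshold with normexp (-0.33, adjusted p = 0.0253) and without mixed replicate 1 (-0.38, adjusted p = 0.0458). The other 3 did not pass under any alternative.

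DUSP1, an immediate early gene whose product acts on several MAP kinases in the nucleus, rose. Its probe read 736, 738 and 689 in culture alone and 912, 889 and 841 in mixed culture. The mixed arrays all lay above the alone arrays, and neither group was widely spread. The difference was 0.36 (SE 0.08, 95% interval 0.17 to 0.54, adjusted p = 0.0374, limma), a 1.28-fold higher signal. It was 0.19 and not called under spike-in scaling (adjusted p = 0.259, limma). It was also not called without mixed replicate 1 (0.34, adjusted p = 0.0811), alone replicate 2 (0.32, adjusted p = 0.141), alone replicate 3 (0.33, adjusted p = 0.138), mixed replicate 2 (0.38, adjusted p = 0.112) or mixed replicate 3 (0.35, adjusted p = 0.137).

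DUSP5, a nuclear phosphatase specific for ERK, was split by mixed replicate 1. Its probe, at chr28:21834801-21834860, read 841, 1223 and 1088 alone and 982, 585 and 532 in mixed culture. Mixed replicates 2 and 3 were below every alone array, whereas mixed replicate 1 lay among the alone arrays. The difference was -0.56 (SE 0.23, 95% interval -1.11 to -0.00, adjusted p = 0.158, limma), and the exact permutation test gave p = 0.2. Without mixed replicate 1 it was -0.82 (adjusted p = 0.0339, limma).

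For DUSP4, another nuclear phosphatase, the LOC482880 probe at chr16:34814724-34814783 read 31.0, 33.1 and 32.1 alone and 21.6, 24.3 and 19.0 in mixed culture. It fell by 0.51 on the log2 scale (SE 0.08, adjusted p = 0.0208, limma), or 1.42-fold. With normexp the difference of this dim probe was -0.14 and was not called (adjusted p = 0.177, limma). It was also not called without alone replicate 2 (-0.53, adjusted p = 0.0837), alone replicate 3 (-0.50, adjusted p = 0.0923), mixed replicate 2 (-0.57, adjusted p = 0.0727) or mixed replicate 3 (-0.46, adjusted p = 0.0982). The other probe, at chr16:34812604-34812663, read 150, 164 and 145 alone and 138, 119 and 86.5 in mixed culture, a difference of -0.37 (SE 0.15, adjusted p = 0.14, limma). Both probes had every mixed array below every alone array.

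**Figure D2:**
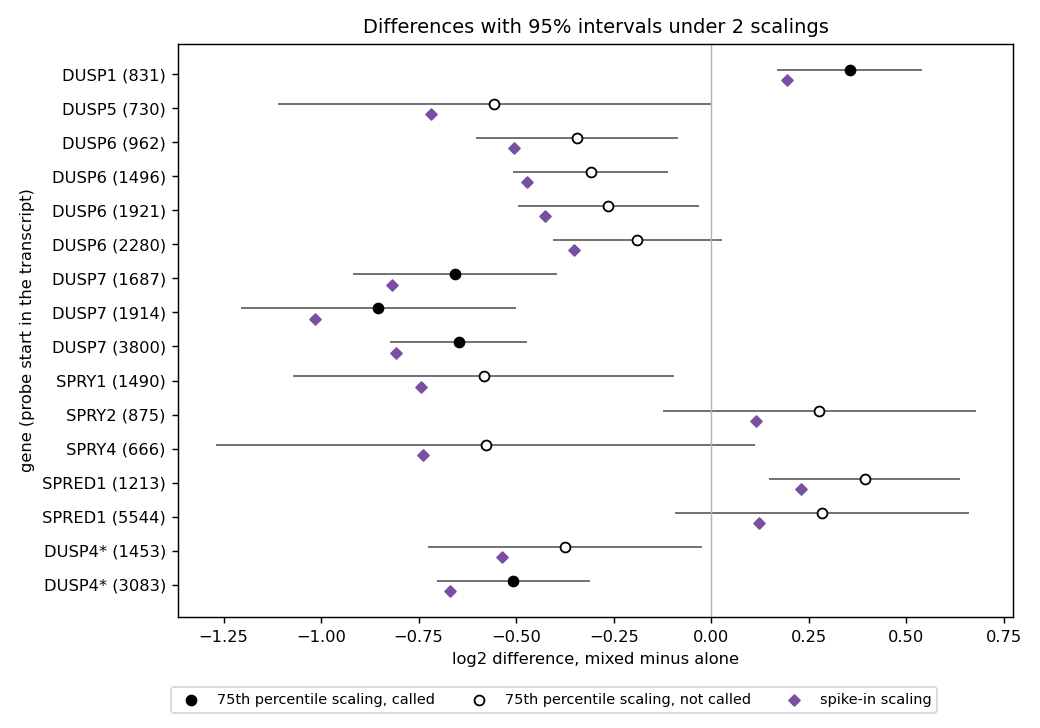
Difference of mixed culture minus culture alone (log2, horizontal axis) at each probe, with the 95% interval of the limma fit. Filled circles were called and open circles were not, and purple diamonds are the same differences under spike-in scaling. The 3 DUSP7 intervals lie wholly below 0, as do those of DUSP5, SPRY1, both LOC482880 probes and DUSP6 except at base 2280. The intervals of DUSP1 and of the SPRED1 probe at base 1213 lie wholly above 0. Spike-in scaling moves every probe down by 0.16.

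Among the Sproutys, none of the 3 genes passed the test and their directions were not shared. SPRY1 was dim, with readings of 35.1, 69.3 and 57.0 alone and 32.0, 33.8 and 33.1 in mixed culture. The mixed arrays were nearly the same as each other and alone replicate 1 lay close to them, while the other 2 alone arrays were higher. The difference was -0.58 (SE 0.20, 95% interval -1.07 to -0.10, adjusted p = 0.109, limma). Without alone replicate 1 it was -0.82 (adjusted p = 0.00564, limma), and with normexp it was -0.22 (adjusted p = 0.136). SPRY4, at chr2:37203846-37203905, was at the limit of detection, with readings of 17.4, 18.2 and 21.4 alone and 19.7, 10.5 and 8.5 in mixed culture. It was well above background on all 3 alone arrays but, in mixed culture, only in replicate 1, which lay among the alone arrays. The fitted difference was -0.58 (SE 0.29, 95% interval -1.27 to 0.11, adjusted p = 0.224, limma), or -0.92 without mixed replicate 1 (adjusted p = 0.0278) and -0.09 with normexp. SPRY2 pointed the other way. It read 2376, 2237 and 1687 alone and 2685, 2671 and 1932 in mixed culture, with replicate 3 the lowest in both groups and the groups overlapping. The difference was 0.28 (SE 0.17, 95% interval -0.12 to 0.68, adjusted p = 0.307, limma), and SPRY2 was not called under any alternative. The SPRY1 and SPRY2 differences thus had opposite signs although their probes share a stretch of sequence, and the difference between the genes was not tested.

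SPRED1, the member that recruits neurofibromin, was higher in mixed culture at both of its probes, short of the threshold. The probe at chr30:5710696-5710755 read 190, 179 and 187 alone and 259, 235 and 207 in mixed culture. All mixed arrays were above the alone arrays, mixed replicate 1 the most. The difference was 0.39 (SE 0.10, 95% interval 0.15 to 0.64, adjusted p = 0.0567, limma). It passed the threshold with normexp (0.29, adjusted p = 0.0487), with the replicate number as a block (adjusted p = 0.0491) and without alone replicate 1 (0.45, adjusted p = 0.0321). The probe at chr30:5714671-5714730 read 40.8, 49.8 and 57.4 alone and 65.5, 49.6 and 56.2 in mixed culture, and the groups overlapped. Its difference was 0.28 (SE 0.16, 95% interval -0.09 to 0.66, adjusted p = 0.266, limma).

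**Figure D3:**
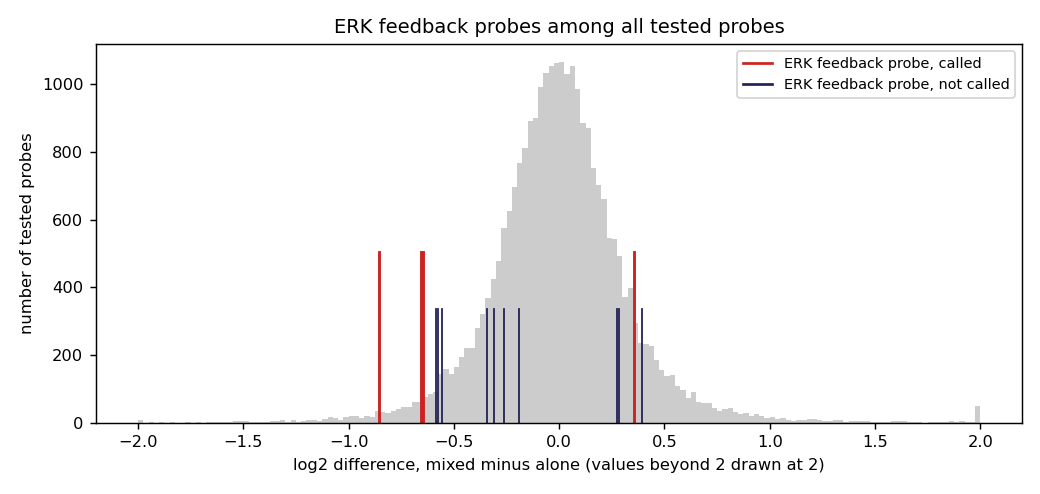
Number of tested probes (vertical axis) by log2 difference of mixed culture minus culture alone (horizontal axis, bins drawn in grey, values beyond 2 drawn at 2). Lines mark the 14 ERK feedback probes, red and tall where called. The 3 red lines at -0.85 to -0.65 are DUSP7 and the red line at 0.36 is DUSP1.

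Arrays within the mixed group were not equal for these genes. Mixed replicate 1 was the mixed array nearest to the alone mean at 8 of the 14 probes, against 36.2% of all tested probes. All 8 were among the 10 probes that were lower in mixed culture, where its share over all lower probes is 37%, and 7 of those 10 probes belong to DUSP6 and DUSP7. Alone replicate 1 was the lowest of the alone arrays at 7 of the 14 probes. Every one of the 14 probes kept its sign under all 14 alternative settings in which it was tested. The calls were less stable: 161 of 195 values under the alternatives fell on the same side of the threshold as in the fit reported, 26 lost it and 8 gained it. Spike-in scaling called 2 of the 14 probes, both of DUSP7, and it moved the median of all tested probes to -0.17 and that of the 14 probes to -0.49. The 8 spike-in controls well above background were all higher on the mixed arrays, by 0.16 on average.

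**Figure D4:**
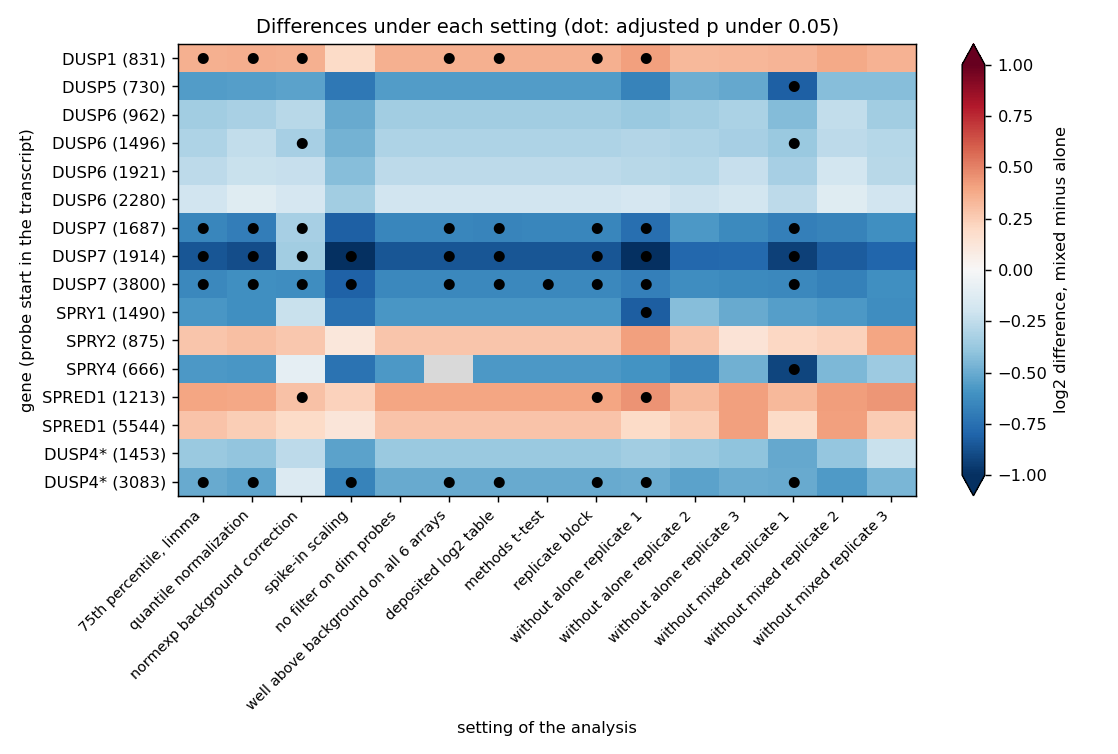
Log2 difference of mixed culture minus culture alone at each probe (rows) under each analysis setting (columns), coloured from blue (lower in mixed culture) to red (higher), with a dot where the adjusted p was under 0.05 and grey where the probe was not tested. Each row keeps a single colour direction. No dot remains in the column with no filter on dim probes or in those that leave out alone replicate 2, alone replicate 3, mixed replicate 2 or mixed replicate 3.

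HRAS, a gene of the Ras family, was lower in mixed culture at its 1 probe, with readings of 181096, 212592 and 201387 alone and 156591, 122533 and 120480 in mixed culture. Mixed replicate 1 was again the mixed array nearest to the alone arrays. The difference was -0.51 (SE 0.11, adjusted p = 0.0377, limma). The call was lost with the replicate block (adjusted p = 0.0554), under spike-in scaling (-0.68, adjusted p = 0.0544), or without alone replicate 2 (adjusted p = 0.127), alone replicate 3 (adjusted p = 0.135), mixed replicate 2 (adjusted p = 0.12) or mixed replicate 3 (adjusted p = 0.135). Whether this probe also reads the RasV12 construct, and the part of its level in the ERK feedback genes, was not tested. NRAS differed by 0.09 and 0.22 at its probes, neither of them called. Of the 22 genes of the Ras to ERK cascade that could be tested, with 1 probe each, HRAS was called lower and GAB1, a docking protein of receptor tyrosine kinases, higher (0.33, adjusted p = 0.0442, limma). The GAB1 call was lost with the replicate block (adjusted p = 0.0608) and under spike-in scaling (0.17, adjusted p = 0.351). The median difference over the 22 genes was -0.03. Of all tested probes, 5.72% were called lower and 5.5% higher.

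Of 9 further DUSP genes tested, 3 were called lower, where the share of all tested probes is 5.72%, 0 were called higher (limma), and the median difference was -0.35. DUSP14 was called lower at all 3 of its probes, by -0.53, -0.50 and -0.71 (adjusted p = 0.0243, 0.0283 and 0.016, limma), and DUSP12 at both of its probes, by -0.53 and -0.50. DUSP16, which acts mainly on JNK and p38, was lower by -0.59 (adjusted p = 0.0357, limma) at 1 probe, while its other probe, at -0.56, was not called. DUSP10, with the same main substrates, was called at 1 of its 3 probes (-0.74, adjusted p = 0.0241, limma), which is not the probe used for the list. Of 17 other regulators of receptor and ERK signalling, 1 was called higher and 2 lower, with a median of -0.11. The shares of all tested probes are 5.5% higher and 5.72% lower. SH2B3, an adaptor that restrains cytokine receptors, was lower by -0.73 and -0.55 at its probes. PEBP1, a phosphatidylethanolamine-binding protein, was lower at 1 probe (-0.49, adjusted p = 0.0224, limma), which read 14510 to 25112 on the 6 arrays. Its other probe, at 0.02, was dim at 54.3 to 62.6 and is placed on the opposite strand. PPP2CB, a catalytic subunit of protein phosphatase 2A, was called at 1 probe (-0.33; adjusted p = 0.0466, limma, and 0.0562 with the replicate block) and not at its other probe (-0.12). FLRT3, a membrane protein that binds FGF receptors, was higher by 0.48 and 0.50 (adjusted p = 0.0256 and 0.047, limma). The second of these probes lost its call with the replicate block (adjusted p = 0.0774), and both did under spike-in scaling (0.32 and 0.34, adjusted p = 0.173 and 0.235).

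The list of ERK-dependent transcription holds transcription factors that ERK regulates, such as ELK1 and the repressor CIC, together with genes induced downstream. Of its 19 tested genes, 5 were called lower and 1 higher, against 5.72% and 5.5% of all tested probes, and the median was -0.13. EPHA2 was lower by -0.71 (adjusted p = 0.0242, limma), PLAUR by -0.68 (adjusted p = 0.0131, limma), and FOSL1, a member of the AP-1 family, by -0.52 (adjusted p = 0.0193, limma). CCND1, which encodes cyclin D1, was lower by -0.59 (adjusted p = 0.0366, limma; 0.0633 with the replicate block), and ETS1 by -0.53 and -0.60 at 2 of its 3 probes. EGR1, like DUSP1 an immediate early gene, was higher at both probes, by 0.67 and 0.77 (adjusted p = 0.0183 and 0.0157, limma). Of 8 genes whose products bind Sprouty or SPRED proteins, 1 was called, against 11.2% of all tested probes. This was DYRK1A, a kinase, higher by 0.37 (adjusted p = 0.0267, limma) at 1 of its probes and 0.33 at the other, not called. Over the 70 genes of these lists, some of which are in more than 1 list, 4 were called higher and 11 lower. The shares of all tested probes are 5.5% and 5.72%. Under spike-in scaling the split was 1 higher and 7 lower. It lost the higher calls of GAB1, FLRT3 and DYRK1A (0.21, adjusted p = 0.249, limma), and LAMTOR3 gained a call. The lower calls of HRAS, CCND1 (adjusted p = 0.0669, limma), DUSP16 (0.0686), FOSL1 (0.0518) and PEBP1 (0.0532) were lost as well. Without mixed replicate 1 the split was 1 higher and 10 lower. Without alone replicate 2, alone replicate 3, mixed replicate 2 or mixed replicate 3, limma called 0 of these genes, with 23 to 27 at an unadjusted p under 0.05 against 32 with all arrays.

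**Figure D5:**
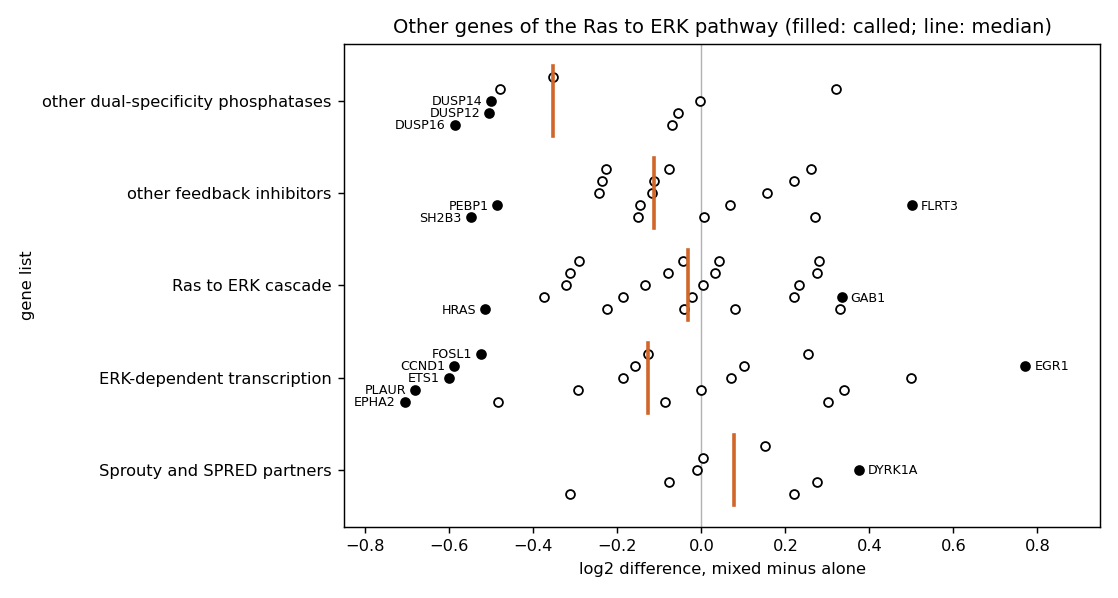
Log2 difference of mixed culture minus culture alone (horizontal axis) for the genes of 5 lists around the Ras to ERK pathway, each at its probe with the highest mean. Filled points were called and are named, open points were not, and the orange lines are list medians. The line of the other DUSP genes is at -0.35 and the lines of the other lists lie between -0.13 and 0.08.

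The identity of the sorted cells was checked against marker genes. The epithelial markers EPCAM, KRT18 and KRT19 were well above background on all arrays, 0 of the 6 tested epithelial genes were called (limma), and the mean log2 level of the 6 was 5.13 to 5.41 alone and 5.27 to 5.50 in mixed culture. At the probes used for the list, CDH1, CLDN4, TJP1 and EPCAM did not overlap between the groups, as was so for 37.2% of all tested probes. They differed in direction, with CDH1 at -0.37 (adjusted p = 0.0648, limma), CLDN4 at 0.72 (adjusted p = 0.0842), TJP1 at 0.28 (adjusted p = 0.0675) and EPCAM at -0.05 (adjusted p = 0.62). Their part in the ERK feedback results was not tested. Of 3 kidney tubule genes tested, 0 were called, with mean levels of -0.97 to -0.81 alone and -0.95 to -0.82 in mixed culture. COL3A1 and PDGFRA of fibroblasts, PTPRC of leukocytes and CDH5 of endothelial cells were well above background on 0 of 6 arrays. Other genes of these lists were detected. COL1A2 read 617 to 691 alone and 662 to 744 in mixed culture at its brightest probe. PECAM1 read 386 to 492 and 419 to 486, and CD14 159 to 185 and 173 to 197. The kidney tubule genes read at most 417 on any array. The tested fibroblast (2), leukocyte (3) and endothelial (2) genes included 0 that were called. The mean levels of the tested genes of these 3 lists were -1.92 to -1.77 alone and -1.88 to -1.75 in mixed culture for fibroblasts, -3.50 to -3.31 and -3.43 to -3.18 for leukocytes, and -1.71 to -1.54 and -1.67 to -1.50 for endothelial cells. These lists hold no gene that tells normal MDCK cells from RasV12 cells, and the share of normal cells in the mixed sorts was not tested.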

How the data were processed

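RNA of 6 sorted samples was measured on Agilent canine arrays. The authors deposited the scanner output (Agilent Feature Extraction 10.10.1.1, per the file headers) with an intensity per spot, already corrected for background, and a log2 table. Its columns, deposited with medians of -0.83 to -0.78, match the log2 intensity minus the 75th percentile. Direction and centring are therefore known, and the study's text names no normalization for the arrays. It gives Student's t-test, unpaired and two-tailed, for an array comparison of related cells, run here as an alternative.

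Control spots and outlier spots were left out, spots of a probe averaged, and log2 intensities scaled to each array's 75th percentile (592 to 700 units). The share of probes well above background was 60.8% to 66.4% per array. Probes so on all arrays of at least 1 group were tested with limma 3.58.1 (R 4.3.3, lmFit and eBayes, Benjamini-Hochberg). Python 3.11.15 (pandas 2.3.3, numpy 2.4.6, scipy 1.17.1, matplotlib 3.10.9) served for tables and plots. The fit was tested on simulated data. Members and lists were chosen with earlier results of these data known. Named besides every member were HRAS, NRAS and, in each list, up to 6 genes with a called probe by size of difference; a further result of this rule is not reported here. One probe per gene was used for lists.

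Same-numbered arrays of the groups correlated at 0.191 to 0.376 after the group means were removed, each over 0.1. A replicate block was therefore run as an alternative. The fit reported has no term for the replicate number, and its p-values are unpaired. The number is also the position on the slide, and alone replicate 2 correlated more with mixed replicate 3 (0.262) than with its own number. A slide block could not be fitted. Alternatives were quantile, normexp (offset 50) and spike-in scaling, filters, the deposited table, the methods' test, a replicate block and leaving out each array.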

Additional observations from a re-analysis of the deposited data

How the results depend on the processing

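Of 26535 probes, 2978 were called. The count was 949 under spike-in scaling (287 higher and 662 lower, against 1459 and 1519), 828 with the methods' t-test after Benjamini-Hochberg adjustment, and 12 with no filter on dim probes. Leaving out single arrays gave 7 to 7335 probes, the lowest without alone replicate 3 and the highest without alone replicate 1. Of the 14 ERK feedback probes, 4 were called, against 2 under spike-in scaling, 1 with the methods' t-test, 0 with no filter on dim probes (8 at an unadjusted p under 0.05, limma) and 0 to 6 without single arrays. The 0 came without alone replicate 2, alone replicate 3, mixed replicate 2 or mixed replicate 3, where limma gave 7 or 8 at an unadjusted p under 0.05, against 10 with all arrays. Of the 70 genes of the pathway lists, 15 were called, against 8 under spike-in scaling (7 of them shared), 6 with the methods' t-test, 0 with no filter (29 at an unadjusted p under 0.05, limma) and 0 to 22 without single arrays. The cause was not tested in any of these. The replicate block called 2825 probes in all, 5 of the 14 and 15 of the 70 genes, of which 11 were shared. HRAS, CCND1, GAB1 and FLRT3 lost their calls and DUSP10, ELK4, ETS2 and IER3 gained one. It kept the DUSP7 and DUSP1 calls and added SPRED1. The LOC482880 probes, added after the data were seen, raised the 4 calls to 5. The dim probes of DUSP7, SPRY1, SPRY4 and LOC482880 depend most on the normexp setting, which joins a background correction with an offset of 50 units. A slide block was not run.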
